A study of Mus musculus with 4 samples.

Results

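Potassium channel genes were described across the cell classes of the mouse retina. They were taken as every gene symbol beginning with Kcn other than Kcnj10 that had at least 50 unique molecular identifiers (UMIs, the counted RNA molecules) over the 4 libraries. Of 99 Kcn symbols, 81 qualified, 17 had fewer UMIs and Kcnj10 was set aside by the definition. The genes just above the minimum were Kcng1 with 52 UMIs and Kcnj16 and Kcnh4 with 54 UMIs each. Those just below it were Kcnn4 with 37, Kcna3 with 36, Kcnmb3 with 35 and Kcnv1 with 34 UMIs. The 81 genes held 1291757 of the 112693850 UMIs of the series, or 1.15%. They comprised 63 genes for pore subunits, 13 for auxiliary subunits and 5 with the same prefix that encode no channel subunit (Kcnq1ot1, Kcnd3os, Kcnmb4os2, Kcnab3os and Kcnrg).

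The data are single-nucleus RNA profiles of the mouse retina, from the left eye, with 2 libraries from animals 2.5 months old, labelled wild type, and 2 from animals 5 months old, for which the labels give no genotype. No strain or treatment is named for either group, and the title of the series names the human retina although each sample is labelled mouse. The matrices of the younger animals held 7404 and 7422 barcodes and 19608068 and 28723256 UMIs, and those of the older animals 7537 and 9963 barcodes and 28042268 and 36320256 UMIs. After removal of likely doublets, 30017 nuclei remained, of which 26804 fell into classes named from marker genes. No Kcn gene or gene for a known channel partner took part in the clustering or the naming. The Kcn levels therefore did not set the classes directly, although the classes rest on other genes of the same nuclei. The 10 classes with at least 20 nuclei in every library were compared: rods, cones, bipolar cells, horizontal cells, amacrine cells, ganglion cells, Müller glia, pigment epithelium, melanocytes and fibroblasts. The last 3 lie outside the neural retina. No pair of libraries shared more than 0.337% of the barcodes of the smaller one. The composition of the libraries differed between the ages. Rods numbered 3139 and 2863 at 2.5 months against 898 and 1865 at 5 months, and horizontal cells 29 and 35 against 119 and 134. The 2.5-month matrices were made with Cell Ranger 7.1.0 and the 5-month matrices with version 4.0.0, so a difference between the ages cannot be told apart from one between the versions.

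Potassium channels let potassium leave or enter a cell along its gradient, which sets the resting potential and shapes responses to light and synaptic input. Voltage-gated (Kv) channels open on depolarization, and some of their subunits are silent, forming channels only together with a partner of the Kv2 family. Calcium-activated, inwardly rectifying (Kir) and leak (K2P) channels open by other cues, and auxiliary subunits such as the Kv beta, KChIP and KCNE proteins change how a pore behaves. In photoreceptors the silent subunit encoded by Kcnv2 contributes to a current of the inner segment that counteracts the dark current.

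Levels are given as CPM, the UMIs of a gene scaled to the total UMIs of its class in that library, in the order 2.5 months replicate 1, 2.5 months replicate 2, 5 months replicate 1 and 5 months replicate 2. Of the 81 genes, 64 had their highest mean level in a class of retinal neurons. The highest class was ganglion cells for 27 genes, amacrine cells for 14, bipolar cells for 10, fibroblasts for 8, cones for 6 and horizontal cells for 4, and melanocytes, rods, Müller glia and pigment epithelium for 3 each. For 42 genes the lowest library of the highest class lay above the highest library of the next class, and for the other 39 the classes overlapped. The same held for 26.5% of all 18512 genes with at least 50 UMIs. Kcnip4, an auxiliary subunit of Kv4 channels that spans a very long locus, alone held 42.5% of the UMIs of the 81 genes.

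**Figure D1:**
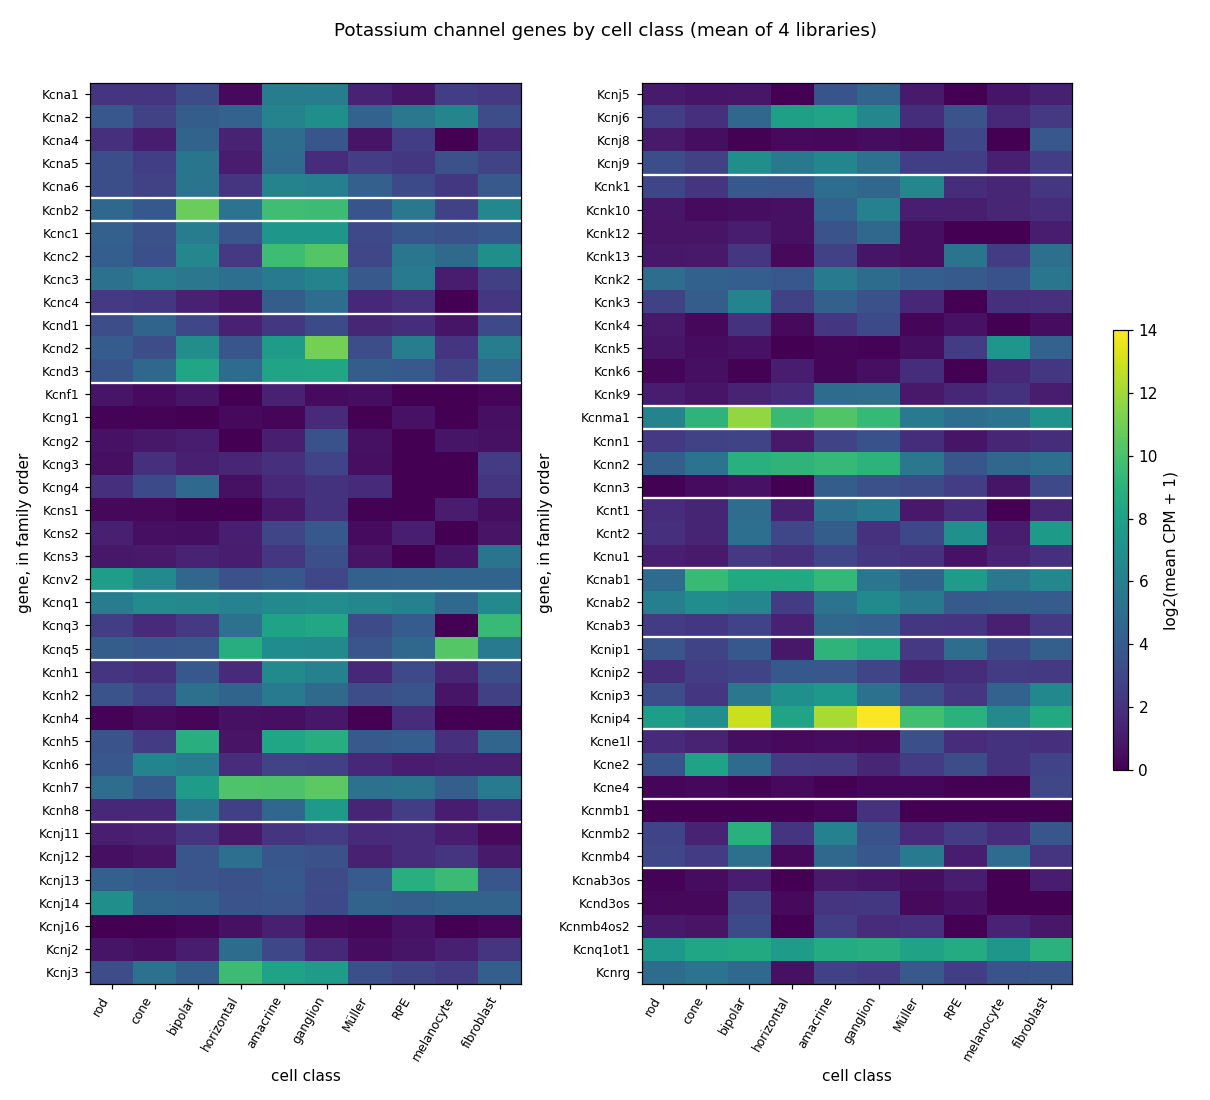
Mean level of the potassium channel genes in the 10 classes over the 4 libraries, as log2 of the mean CPM plus 1, with genes ordered by family. The brightest cells of most rows lie in the ganglion, amacrine and bipolar columns, and Kcnip4 is the brightest row.

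Each class was compared with the mean of the log levels of the other 9 by edgeR's quasi-likelihood test on UMIs summed per class and library, with library as a block. A gene was called at an adjusted p under 0.05 and at least a 2-fold difference, with Benjamini-Hochberg adjustment over the 14829 genes tested. Of the 81 genes 69 were tested, and the other 12, with 52 to 382 UMIs each, were too low. Because the low-value filter keeps genes that are high in at least one class, the counts are set beside those over all genes tested. In amacrine cells 51 of the 69 were called higher and 4 lower, where 17.2% of all genes were higher and 6.68% lower. In ganglion cells 45 were higher and 10 lower (all genes 18.2% and 10.4%), and in bipolar cells 35 and 5 (13.4% and 8.11%). Horizontal cells had 16 higher and 13 lower (10.5% and 12.3%). The other 6 classes each had more genes lower than higher. Cones had 12 higher and 30 lower (13.2% and 15.4%), rods 5 and 28 (11.8% and 16.8%), Müller glia 6 and 28 (16.1% and 9.37%) and melanocytes 6 and 31 (11.9% and 12%). Fibroblasts had 9 and 19 (17% and 8.52%), and pigment epithelium 7 and 14 (12.1% and 10%). The median log2 fold change of the 69 genes was 2.52 in amacrine cells, against 0.06 over all genes, and 1.91 in ganglion cells, against 0.05. It was -0.91 in rods (all genes 0.01), -1.06 in cones (-0.01), -1.13 in Müller glia (-0.04) and -1.63 in melanocytes (-0.24). Of the 69 genes, Kcnq1 and Kcnq1ot1 were the 2 called higher in no class.

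**Figure D2:**
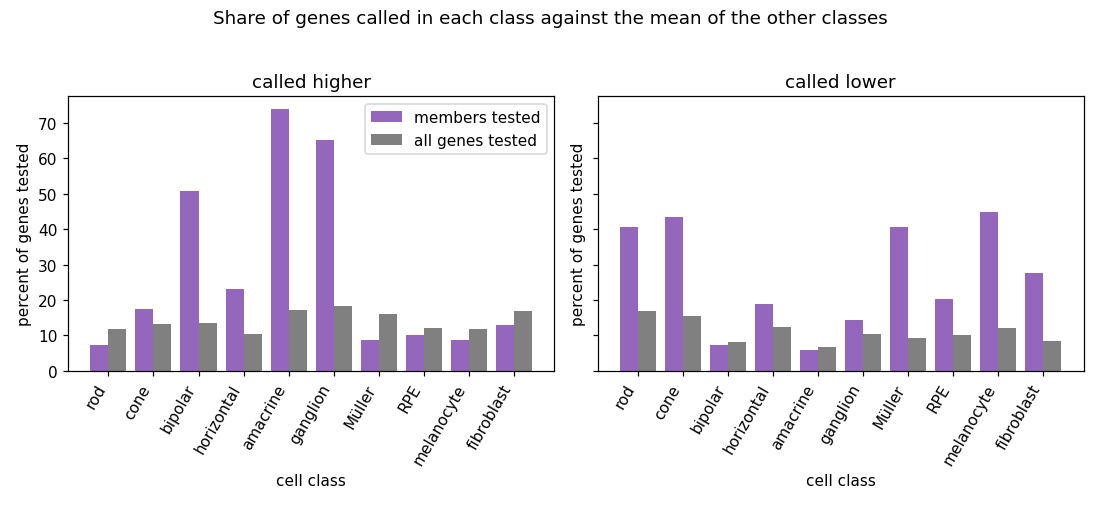
Percent of genes called higher (left) and lower (right) in each class against the mean of the other classes, for the 69 potassium channel genes tested (purple) and for all 14829 genes (grey). The purple bars for higher calls exceed 50 percent in bipolar, amacrine and ganglion cells, and those for lower calls are near 40 percent or above in rods, cones, Müller glia and melanocytes.

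Rods were highest for Kcnv2 and Kcnj14. Kcnv2, the silent subunit, stood at 247, 228, 223 and 193 CPM in rods and 105, 93.0, 110 and 85.0 CPM in cones. Every rod library lay above every cone library, and bipolar cells held 24.0 ± 3.17 CPM (SD, n = 4). Its difference from the other classes in rods was 3.35 on the log2 scale (SE 0.09, adjusted p = 2.6e-36, edgeR). Kcnj14, an inward rectifier, was at 122, 123, 138 and 120 CPM in rods and between 15.6 and 32.5 CPM in cones. Its log2 fold change in rods was 2.82 (SE 0.11).

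RNA of rod marker genes was also counted in the other classes. The summed rod markers stood at 4.90% of the rod level in ganglion cells, 16.1% in bipolar cells, 16.1% in Müller glia and 38.5% in cones. Kcnv2 was at 44.2% of its rod level in cones, above the rod markers, and Kcnj14 at 17.3%, below them. To remove this RNA, a rod profile scaled to the summed rod markers was subtracted from every other named class. The number of genes called higher in rods was then 8 rather than 5, with the share of all genes after removal not given here. In cones 38.5% of the rod level was subtracted, above the 17.3% at which Kcnj14 stood, so the removal may take too much there.

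Cones were led by auxiliary subunits. Kcne2, a small single-span subunit of several Kv channels, was at 263, 247, 229 and 381 CPM in cones. Bipolar cells came next at 37.3, 26.0, 23.6 and 27.1 CPM, far from overlap, and rods held 11.4 ± 2.88 CPM (SD, n = 4). The log2 fold change of Kcne2 in cones was 5.50 (SE 0.11, adjusted p = 1.4e-42, edgeR). Kcnab1, a Kv1 beta subunit, was called higher in cones by 2.60 (SE 0.09) on the log2 scale. Its cone values of 691, 792, 755 and 607 CPM overlapped those of amacrine cells, 579 to 714 CPM. Kcnab2, another beta subunit, lay between 109 and 121 CPM in cones and between 86.7 and 107 CPM in ganglion cells, a narrow gap. Kcnh6, an ERG channel, was at 50.9, 78.4, 86.8 and 94.7 CPM in cones and 47.1 to 66.0 CPM in bipolar cells, which overlapped. Kcnd1, a Kv4 pore gene, held 16.7, 23.4, 25.1 and 21.8 CPM in cones, above the 10.9 CPM of the highest rod library, the next class.

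The 2 photoreceptor types were also compared directly in the same fit. In rods 4 of 69 genes were called higher than in cones and 12 lower, where 7.1% and 9.31% of all genes were. Kcnab1 was lower in rods by 4.76 on the log2 scale, at 28.2 ± 2.85 CPM against 711 ± 80.8 CPM (SD, n = 4). Kcne2 was lower by 4.70 and Kcnma1, the pore gene of the large-conductance calcium-activated (BK) channel, by 3.00. The 4 genes called higher in rods were Kcnj14 by 2.40, Kcnmb2 by 1.44, Kcnv2 by 1.10 and Kcna2, a Kv1 pore gene, by 1.01. The count of 4 depended on how rod RNA was treated and was 22 after its removal, which may take too much from cones, as said above. The share of all genes after removal is not given here.

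Bipolar cells were highest for the BK channel and one of its beta subunits. Kcnma1 stood at 3461, 3999, 3454 and 2899 CPM in bipolar cells, and the next class, amacrine cells, at 984, 1431, 1289 and 1024 CPM. Kcnmb2, a beta subunit that inactivates the channel, was at 459, 529, 442 and 446 CPM in bipolar cells and 57.8 to 91.7 CPM in amacrine cells. Neither gene overlapped between these classes, and the log2 fold changes against the other classes were 4.35 (SE 0.11) and 6.44 (SE 0.10). Kcnb2, a Kv2 pore gene, was at 1756, 1989, 1864 and 1573 CPM in bipolar cells and up to 1008 CPM in amacrine cells, a log2 fold change of 5.24 (SE 0.14). Kcnk3, an acid-sensitive leak channel, was at 67.1 to 87.7 CPM and its log2 fold change was 4.54 (SE 0.17). Kcng4, a silent Kv6 subunit, was at 18.6, 28.5, 32.8 and 26.5 CPM, and cones, the next class, at 4.68 to 10.8 CPM. Against amacrine cells, 10 of 69 genes were called higher in bipolar cells and 26 lower, where 8.5% and 13.2% of all genes were. Kcnq3, a subunit of the M-current channel, and Kcnip1, a Kv4 auxiliary subunit, were lower by 6.25 and 5.53 on the log2 scale.

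The windows around the transcript starts were searched for TAATCC, or GGATTA on the opposite strand, the core that the photoreceptor and bipolar homeodomain factors Crx and Otx2 are known to bind. RefSeq windows of GRCm38.p6, from 250 bases before to 50 after the start, were given for 58 of the 81 genes. A match was present in 3 of the 58 (5.17%) and in 7.16% of the first windows of 27025 genes. All 3 genes with a match are shown. Kcnrg was highest in cones and Kcng4 and Kcnj9, a G-protein-gated Kir subunit, in bipolar cells. Of the 5 genes with a window that were highest in rods or cones, 1 had a match, and of the other 53 genes 2 had one. The match, in capitals, begins 37 bases before the start in Kcnrg, 5 before it in Kcng4 and 97 before it in Kcnj9, and each sequence reads 5′ to 3′ on the strand of its gene. The windows are chr14:61607207-61607506 (plus strand), chr8:119635631-119635930 (minus strand) and chr1:172329273-172329572 (minus strand). No window was given for Kcnv2 or Kcnj14.
Kcnrg: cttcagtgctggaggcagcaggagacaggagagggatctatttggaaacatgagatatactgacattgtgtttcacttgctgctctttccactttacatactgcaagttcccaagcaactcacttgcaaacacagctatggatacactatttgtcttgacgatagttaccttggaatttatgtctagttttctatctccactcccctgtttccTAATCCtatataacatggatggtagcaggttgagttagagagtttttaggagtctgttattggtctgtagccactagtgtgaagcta
Kcng4: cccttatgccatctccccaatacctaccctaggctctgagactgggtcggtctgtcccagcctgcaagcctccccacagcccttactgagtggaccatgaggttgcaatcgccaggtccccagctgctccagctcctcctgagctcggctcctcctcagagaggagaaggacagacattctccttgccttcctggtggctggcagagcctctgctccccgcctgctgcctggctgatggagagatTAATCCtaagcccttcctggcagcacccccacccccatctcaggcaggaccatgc
Kcnj9: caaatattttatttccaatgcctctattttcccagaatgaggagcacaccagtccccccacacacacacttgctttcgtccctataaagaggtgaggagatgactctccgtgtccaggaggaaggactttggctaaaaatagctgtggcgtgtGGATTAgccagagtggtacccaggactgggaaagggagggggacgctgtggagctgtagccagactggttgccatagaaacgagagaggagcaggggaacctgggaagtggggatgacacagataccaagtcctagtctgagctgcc
Kcnrg encodes a soluble protein related to the assembly domain of Kv channels, and its cone level was 48.1, 26.0, 25.6 and 58.1 CPM, which overlapped the rod level of 23.6 to 41.4 CPM. The matches are a description of the letters in these windows.

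Within the bipolar class, rod bipolar cells, which take input from rods, were compared with cone bipolar cells that respond to light increments (ON), and these with the OFF type. Subclasses of bipolar and amacrine cells were named cluster by cluster from marker genes. A cluster of 366 bipolar nuclei met no subclass rule and was left out, so the subclasses do not cover the whole class. Rod bipolar cells had 8 of 65 genes higher than ON cone bipolar cells and 16 lower, where 4.39% and 7.4% of 13641 genes were. Kcnt2, a sodium-activated potassium channel, was at 120, 123, 115 and 96.8 CPM in rod bipolar cells and at 1.45, 1.37, 1.77 and 3.01 CPM in ON cone bipolar cells. The log2 fold change was 6.05 (SE 0.37, adjusted p = 4e-22, edgeR), and the groups lay far apart. Kcne2 was at 59.6 to 121 CPM in rod bipolar and 2.91 to 10.5 CPM in ON cone bipolar cells. Kcnb2 went the other way, with 62.6, 74.3, 159 and 90.2 CPM in rod bipolar cells against 3518, 4060, 3587 and 3120 CPM in ON cone bipolar cells, a log2 fold change of -5.20 (SE 0.26). Kcng4, the silent subunit, was lower as well, at 32.0 to 70.6 CPM in ON cone bipolar cells and at most 4.40 CPM in rod bipolar cells.

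Between the cone bipolar types, ON cells had 10 genes higher than OFF cells and 11 lower, where 3.47% and 3.56% of all genes were. Kcnh5, an EAG channel, was at 143, 155, 102 and 108 CPM in ON and 3.57 to 11.6 CPM in OFF cells, and Kcnd2, a Kv4 pore gene, at 218, 227, 309 and 284 CPM in ON and 8.16 to 34.9 CPM in OFF cells. Kcnh7, an ERG channel, was at 26.2, 47.9, 35.3 and 81.2 CPM in ON cells and 939, 754, 776 and 809 CPM in OFF cells. Their log2 fold changes were 4.35 (SE 0.45), 3.89 (SE 0.43) and -4.15 (SE 0.29). No library of one type overlapped the other for these 3 genes. Kcna1, a Kv1 pore gene, was also lower in ON cells, with 5 UMIs there and 57 in OFF cells.

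Amacrine cells had the most genes called higher, and 14 of the 81 genes had their highest level there. Kcnip1 was at 488, 542, 621 and 561 CPM in amacrine cells and 262 to 428 CPM in ganglion cells, a log2 fold change of 5.51 (SE 0.11). Kcnh1, an EAG channel, was at 93.8, 141, 105 and 76.0 CPM and in ganglion cells at 67.8 to 73.4 CPM, just below. Kcnh2, an ERG channel, was at 45.2 to 70.7 CPM in amacrine and 29.3 to 39.4 CPM in bipolar cells. Kcnn2, a small-conductance calcium-activated channel, was at 586 to 739 CPM in amacrine and 475 to 607 CPM in ganglion cells, which overlapped.

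Starburst cells, the cholinergic amacrine cells of the direction-selective circuit, differed from the other amacrine cells in 13 genes higher and 25 lower of 65, where 5.56% and 9.56% of all genes were. The other amacrine cells here are the clusters named GABAergic or glycinergic. Amacrine clusters of 540 and 155 nuclei met no subclass rule and were left out. Kcnj2, a strong inward rectifier, was at 80.2, 75.8, 77.1 and 90.6 CPM in starburst cells and at 1.89, 3.13, 2.24 and 4.22 CPM in other GABAergic amacrine cells. It was called higher against the mean of the log levels of GABAergic and glycinergic cells (adjusted p = 4.8e-27, edgeR). Glycinergic cells held no UMI of Kcnj2, so the fitted log2 fold change of 7.38 (SE 0.35) is no measured size. Kcnk2, a mechano-gated leak channel, was at 325, 368, 357 and 388 CPM in starburst cells and at most 45.0 CPM in the others, a log2 fold change of 3.91 (SE 0.14). The silent subunits Kcnf1 and Kcng3 were higher as well, from 28 and 44 UMIs. Among subunits of G-protein-gated Kir channels, Kcnj3 was at 0 to 16.3 CPM in starburst cells against 195 to 224 CPM in GABAergic and 371 to 420 CPM in glycinergic cells. Kcnj5 had no UMI in starburst cells and was at least 7.58-fold higher in the other amacrine cells, taking 3 counts over the group as the floor. Kcnj9 was at 40.1, 95.2, 103 and 81.3 CPM in starburst cells and was not called. Kcnip3, another Kv4 auxiliary subunit, had a log2 fold change of -5.62 (SE 0.36).

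Glycinergic amacrine cells had 15 genes higher than GABAergic cells without the starburst type and 20 lower, where 5.38% and 6.96% of all genes were. Kcnmb2 was at 221, 251, 207 and 186 CPM in glycinergic and 2.51 to 7.23 CPM in GABAergic cells, a log2 fold change of 5.29 (SE 0.18). Kcnh1 was at 259, 384, 349 and 254 CPM in glycinergic and 29.0 to 40.2 CPM in GABAergic cells. Kcnip1 was at 43.7, 17.4, 46.6 and 27.5 CPM in glycinergic and 770, 938, 878 and 800 CPM in GABAergic cells, a log2 fold change of -4.84 (SE 0.19). The groups did not overlap for any of these 3 genes. Kcnj2 had no UMI in glycinergic cells and was at least 6.56-fold higher in GABAergic cells by the same floor.

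**Figure D3:**
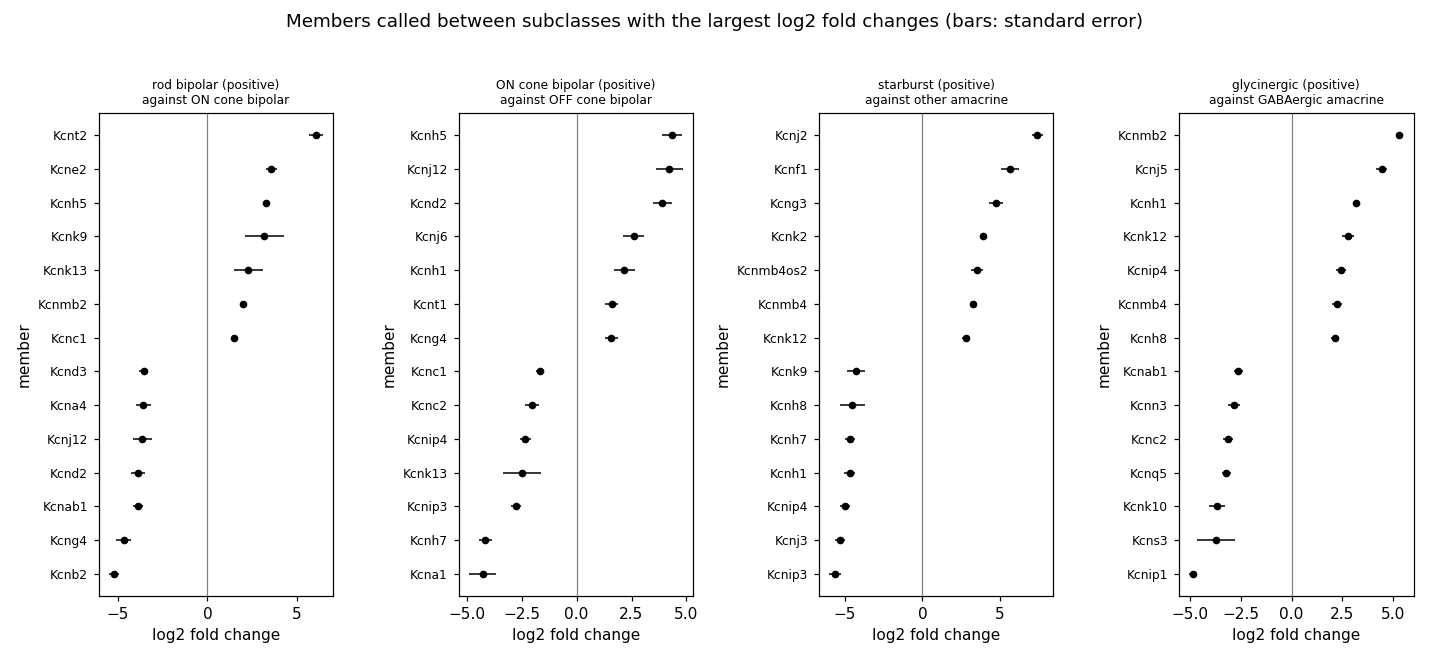
Log2 fold change and standard error of up to 7 called genes in each direction in 4 comparisons between bipolar or amacrine subclasses, positive where the first-named subclass was higher. Kcnt2 and Kcnb2 lie at the ends of the rod bipolar panel, and Kcnj2 at the positive end of the starburst panel. Genes with no UMI on a whole side are left out. Kcnj2 stays in the starburst panel because GABAergic cells held UMIs of it. Glycinergic cells held none, so its place there is no measured size.

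Ganglion cells, the output neurons, were highest for Kcnd2, Kcnip4, Kcnh8, Kcnk10 and Kcnc2, among others. Kcnd2 was at 2450, 2211, 2222 and 1724 CPM in ganglion cells and 261, 190, 229 and 168 CPM in amacrine cells, the next class. Its log2 fold change against the other classes was 6.62 (SE 0.16, adjusted p = 2.1e-38, edgeR). Kcnip4 was at 16519, 18311, 14415 and 12158 CPM in ganglion cells and next highest in bipolar cells, with no library above 8265 CPM. Kcnh8, an ELK channel, was at 212, 184, 196 and 162 CPM, above bipolar cells at 36.8 to 54.1 CPM, and Kcnk10, a leak channel of the TREK group, at 66.5, 84.9, 66.1 and 52.5 CPM. Their log2 fold changes were 5.61 (SE 0.11) and 5.91 (SE 0.21). Kcnc2, a Kv3 channel of fast-spiking neurons, was at 1058 to 1351 CPM in ganglion and 705 to 887 CPM in amacrine cells. Against amacrine cells, 13 of 69 genes were higher and 11 lower, where 6.7% and 7.99% of all genes were. The lowest was Kcnab1 at -3.72 on the log2 scale, and the highest were Kcnd2 at 3.47 and Kcnh8 at 3.08.

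Among the classes, horizontal cells were highest for the inward rectifier genes Kcnj3, Kcnj2 and Kcnj12. For Kcnj2 the order holds for whole classes only. Every library of starburst cells, a subclass of amacrine cells, was above every horizontal library. Kcnj3 was at 840, 737, 871 and 621 CPM in horizontal cells and 237 to 286 CPM in amacrine cells, with a log2 fold change against the other classes of 5.51 (SE 0.12, adjusted p = 1.7e-40, edgeR). Kcnj6, the subunit that pairs with it, was at 231 to 269 CPM in horizontal cells and 240 to 338 CPM in amacrine cells, which overlapped. Kcnj2 was at 43.4, 37.7, 22.8 and 17.2 CPM and Kcnj12, a related strong rectifier, at 53.1, 35.0, 24.0 and 22.5 CPM, while no amacrine library, the next class for both, passed 7.76 and 14.3 CPM. Against amacrine cells 4 of 69 genes were higher and 38 lower, where 5.8% and 14.5% of all genes were (20.3% in either direction). The 4 higher genes were Kcnq5 by 2.27, Kcnj2 by 2.26, Kcnj3 by 1.87 and Kcnj12 by 1.58 on the log2 scale. With 29 and 35 horizontal nuclei in the 2.5-month libraries, low genes were poorly measured there.

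**Figure D4:**
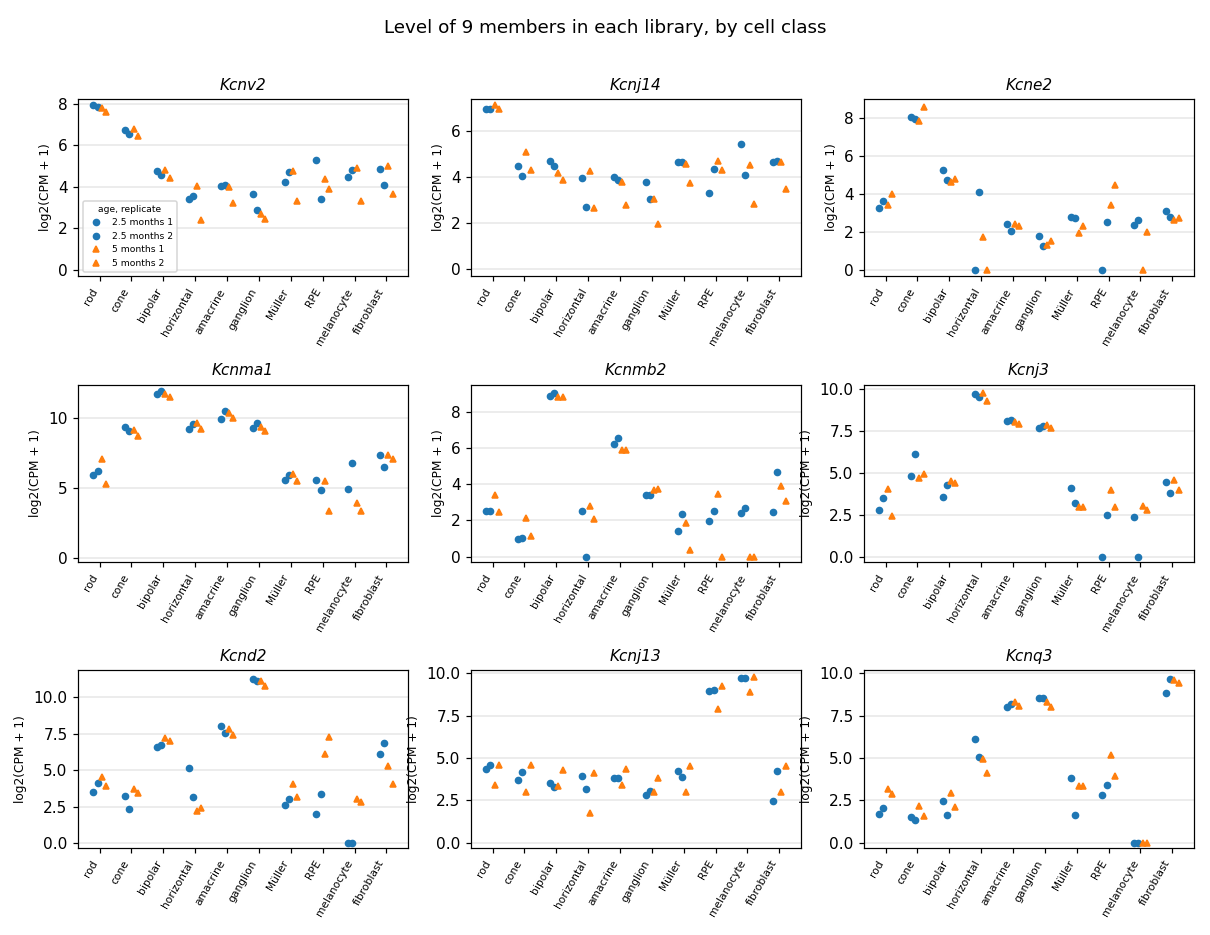
Level of 9 genes in each library by class, as log2(CPM + 1), with circles for 2.5 months and triangles for 5 months. The 4 points of the highest class stand above all others for Kcnv2 and Kcnj14 in rods, Kcne2 in cones, Kcnma1 and Kcnmb2 in bipolar cells, Kcnj3 in horizontal cells and Kcnd2 in ganglion cells, and Kcnj13 overlaps between melanocytes and pigment epithelium.

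Müller glia had fewer genes higher, 6 of 69, than lower, 39, when set against the mean of the 6 neuron classes (all genes 17.4% and 13.2%). The best known Müller channel gene, Kcnj10, is outside the definition. Kcnk1, a weakly rectifying leak channel, was at 89.5, 74.1, 94.6 and 99.5 CPM in Müller glia and 30.7 to 33.4 CPM in amacrine cells. Its log2 fold change against the other classes was 3.63 (SE 0.11). Kcnmb4, a neuronal-type BK beta subunit, was at 40.9, 59.7, 50.1 and 61.0 CPM in Müller glia and overlapped bipolar cells at 27.6 to 45.1 CPM. Kcnma1 itself was lower in Müller glia than in neurons by 3.60 on the log2 scale. Kcnmb4 shares its locus with the antisense gene Kcnmb4os2, as do Kcnq1 with Kcnq1ot1, Kcnd3 with Kcnd3os, Kcnab3 with Kcnab3os and Kcnip1 with Kcnmb1. Whether the counting used strand is not given in the sources used here, so values of these genes are uncertain.

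The pigmented and supporting cells outside the neural retina were highest for some Kir, KCNQ and leak genes. Kcnj13, an inward rectifier of the pigment epithelium, was at 482, 518, 237 and 601 CPM in pigment epithelium and 854, 833, 471 and 865 CPM in melanocytes. Within each library melanocytes were higher, but the ranges overlapped, and the difference of 0.45 on the log2 scale (adjusted p = 0.0030, edgeR) was under 2-fold. Rods held 18.7 and Müller glia 15.1 CPM of Kcnj13 on average. Kcnk13, a leak channel, was at 26.6, 52.2, 49.3 and 41.9 CPM in pigment epithelium and overlapped fibroblasts at 6.63 to 57.0 CPM. Pigment epithelium had 14 of 69 genes higher than Müller glia and 7 lower (all genes 11% and 14.7%).

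In melanocytes Kcnq5, a KCNQ pore gene, was at 1317, 993, 1492 and 1214 CPM, above horizontal cells at 347 to 536 CPM. Kcnk5, a leak channel, was at 174, 144, 246 and 97.1 CPM, and no fibroblast library, the next class, passed 24.2 CPM. Their log2 fold changes against the other classes were 4.71 (SE 0.15) and 7.77 (SE 0.29). Against pigment epithelium, melanocytes had 4 of 69 genes higher (Kcnq5, Kcnk5, Kcnmb4 and Kcnip3) and 13 lower, where 9.23% and 10.3% of all genes were. Kcnq3 had no UMI in melanocytes and was at least 4.27-fold higher in pigment epithelium, taking 3 counts over the class as the floor. Fibroblasts were highest for Kcnq3, at 460, 816, 766 and 681 CPM against 258 to 371 CPM in ganglion cells. Kcnt2 was at 151 to 280 CPM in fibroblasts and overlapped pigment epithelium at 86.2 to 180 CPM, and its fibroblast log2 fold change was 4.57 (SE 0.14). Kcnj8, the vascular subunit of ATP-sensitive channels, was at 6.63, 27.8, 6.91 and 10.8 CPM in fibroblasts and overlapped pigment epithelium. Its sulfonylurea receptor partner Abcc9 was called higher in the same class, by 5.49 on the log2 scale.

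Genes for known channel partners formed a separate list of 24, of which 22 were tested. In amacrine cells 11 of these 22 were higher and 0 lower, and in ganglion cells 11 and 1, beside the shares of all genes given above for these classes. Dpp10 and Dpp6, which join Kv4 channels, had log2 fold changes of 3.73 and 3.51 in amacrine cells. In ganglion cells Dpp10 had 5.96. Cntnap2, of the Kv1 complex at axons, was higher in ganglion cells by 4.79 and in amacrine cells by 4.70. Lrrc52, a BK gamma subunit, was higher in pigment epithelium, where Kcnma1 was called lower. Its fitted log2 fold change of 8.87 is uncertain in size, because Lrrc52 was too low in bipolar cells to be fitted (SE 4630).

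Subunits known to assemble with each other were compared over the 10 classes, which share libraries and depth. Mean log levels of Kcnd2 and Kcnip4 had Pearson's r = 0.882, and Kcnd3 and Kcnip4 0.916. The other KChIP genes had lower values with both. With Kcnip1, Kcnip2 and Kcnip3 in this order, Kcnd2 had r = 0.83, 0.333 and 0.377, and Kcnd3 0.666, 0.595 and 0.555. Kcnma1 and Kcnmb2 had r = 0.704 and Kcnma1 and Kcnmb4 0.109. Kcna1 had 0.0639 with Kcnab1 and 0.526 with Kcnab2, and Kcna2 had -0.182 and -0.102 with the same genes. These values describe 10 classes and have no test.

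Between the ages, few genes were called. Each class was fitted on its own by edgeR's quasi-likelihood test with 2 libraries per age, and 74 of the 81 genes were tested in at least one class, in 383 tests of a gene in a class. In 9 of the 10 classes 0 genes were called by edgeR, and 0 by DESeq2, where between 0.0195% and 0.177% of all genes were by edgeR. An unadjusted p under 0.05 was found in 35 of the 383 tests (9.14%), and in 5.50% to 8.06% of all genes tested, by class. In pigment epithelium 2 of the 14 genes tested were higher at 5 months and 1 lower, where 0.488% of 4917 genes were called in either direction. Nothing in the labels says more of the 2 animals per age than their donor numbers, so the p-values measure the spread between these libraries.

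The 3 genes called in pigment epithelium rest on small numbers. Kcnd2 was at 2.96 and 9.50 CPM at 2.5 months and 69.0 and 156 CPM at 5 months, a log2 fold change of 4.46 (SE 0.70, adjusted p = 0.0206, edgeR). It had 3 UMIs at 2.5 months, and the ratio of levels was 23.4 with a counting interval of 7.74 to 116. Kcnh7 was at 5.92, 4.75, 98.5 and 51.2 CPM, a log2 fold change of 3.70 (SE 0.66, adjusted p = 0.0326). It too had 3 UMIs at 2.5 months, and its ratio was 12.1 (3.88 to 61.3). Kcnab1 was at 278, 366, 118 and 102 CPM, a log2 fold change of -1.42 (SE 0.26, adjusted p = 0.0406), from 171 and 68 UMIs. The ages did not overlap for any of the 3 genes. The same held for 5 of the 14 genes tested in pigment epithelium (35.7%) and for 38.9% of all genes tested there. Kcnd2 was highest in ganglion cells, and the summed ganglion markers in pigment epithelium were also higher at 5 months, at 576 and 298 CPM against 121 and 128 CPM; their part in the result was not tested. With doublets removed only by the caller's automatic threshold, the marker sum was 363 and 181 CPM at 2.5 months, and Kcnd2 and Kcnh7, at log2 fold changes of 1.35 and 1.69, were not called by edgeR. Kcnab1 was not called there either (-1.39, adjusted p = 0.124, edgeR), nor with doublets kept (-0.97, adjusted p = 0.227) or with the trend with gene length removed (adjusted p = 0.0594). DESeq2 called Kcnd2 alone, and after the libraries were thinned to one depth none of the 3 was called (adjusted p = 0.0921, 0.0921 and 0.0806, edgeR), nor was any with rod RNA removed (adjusted p = 0.0501, 0.0667 and 0.0874). With each library left out in turn, log2 fold changes were 3.54 to 5.25 for Kcnd2, 3.29 to 4.09 for Kcnh7 and -1.58 to -1.25 for Kcnab1. Whether each of the 3 was called depended on the library left out. Such a fit leaves a single library at an age, so its p-values are not given.

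**Figure D5:**
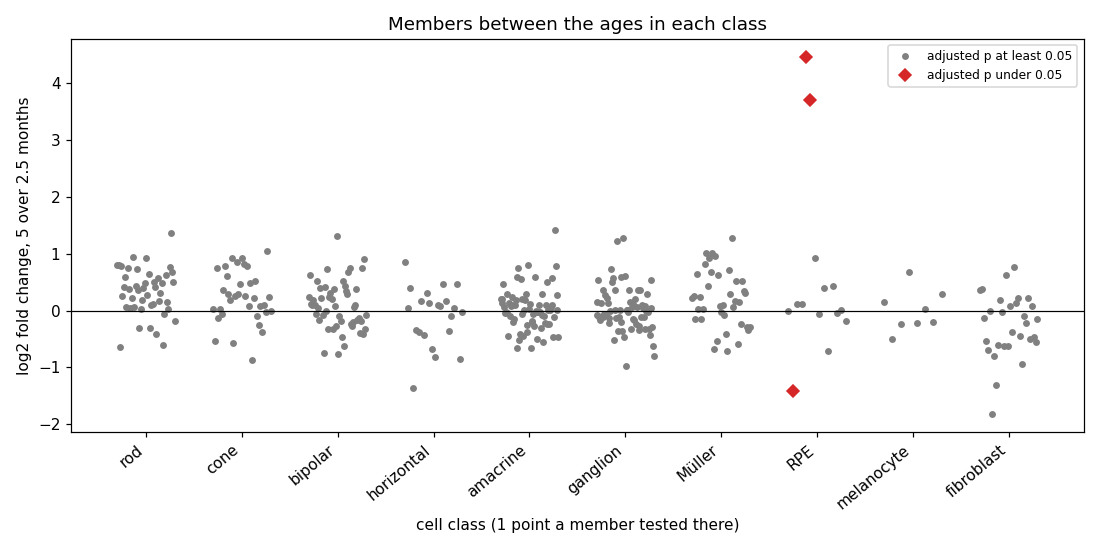
Log2 fold change of 5 over 2.5 months for every gene tested in each class, with red diamonds at an adjusted p under 0.05. The 3 diamonds lie in pigment epithelium, and the other points lie mostly between -1 and 1.

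In rods 38 of the 45 genes tested had a positive log2 fold change, with a median of 0.39 against 0.02 over all genes, and 0 were called. The genes that were highest in rods differed little, with log2 fold changes of -0.18 (SE 0.15) for Kcnv2 and 0.09 (SE 0.17) for Kcnj14. Kcnj14 overlapped between the ages and Kcnv2 did not. Whether an age difference itself differed between rods and amacrine cells, Müller glia or cones was tested with a class by age term. For all 3 pairs 0 genes were called by edgeR (all genes 0.102%, 0.0509% and 0.433%), and 0 by DESeq2, with 17 of 68, 4 of 47 and 9 of 45 genes at an unadjusted p under 0.05, where 8.47%, 7.04% and 8.32% of all genes were. Family sums were compared over the 4 libraries, for which an exact permutation test cannot go below p = 0.333. Of 170 pairs of a family and a class, 67 (39.4%) did not overlap between the ages, 32 of them higher at 5 months. Of all genes tested singly, 33.3% to 40.5% by class did not overlap.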

How the data were processed

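The values deposited by the authors are raw UMI counts per gene and nucleus in 10x matrices, made with Cell Ranger 7.1.0 for the 2.5-month libraries and 4.0.0 for the 5-month libraries, per the file headers, on mm10, per the submitters' processing notes; whether introns or strand were used is not given in the sources used here. Nuclei with under 300 genes or over 5% mitochondrial UMIs were removed (27 of 32326). The remaining nuclei were clustered with scanpy 1.11.5 (2000 variable genes without Kcn and partner genes, 30 principal components, Leiden resolution 1, 46 clusters). A cluster was named from at least 3 raised markers. Naming was settled after the clusters had been looked at: clusters led by Matn3 and Cd74 were set aside, and the lens list was left out of the rule on mixed markers. Unnamed nuclei were 12.5, 6.53, 10.4 and 12.8% of the libraries.

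Doublets were scored with scrublet, whose automatic threshold marked 3, 1, 672 and 784 nuclei, so it did not work at 2.5 months. Nuclei were removed if they were marked automatically or were among the highest 6% of scores in their library (421, 405, 672 and 784 nuclei). The first rule run, the highest 6% alone, left automatically marked nuclei at 5 months and was replaced after its age results had been seen. Summed ganglion markers in pigment epithelium at 5 months were 530 and 475 CPM under the first rule and 576 and 298 CPM under the rule used, so they were not removed by it. Genes called with age over all classes numbered 7 under the first rule, 3 under the rule used, 1 under the automatic threshold alone and 5 with doublets kept. The calls over all genes were 201, 86, 72 and 132 in the same order.

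UMIs were summed per class and library and tested with edgeR 4.0.16 (TMM scaling, filterByExpr) in R 4.3.3, with Benjamini-Hochberg adjustment over all genes. DESeq2 1.42.0, relative log expression scaling, other filters, doublet settings, depths and library sets were alternatives. On simulated counts for rods between ages, 43% of genes changed by 1 on the log2 scale and 98.0% of those changed by 2 were called among 12043 genes; in pigment epithelium 29.6% and 87.9% were, among 4722. Intervals cover counting error only. The genes named are, per class, up to 5 called higher without overlap and up to 3 called lower with the largest changes, those called with age, those with the most UMIs per family and those with the largest changes between subclasses and pairs; others are named to show a family member or an overlap and were chosen after their values were seen. The Kcn genes, gene lists and tests were chosen with earlier results of these data known. Donor numbers restart at each age and do not pair the libraries. Some genes counted in the totals are not reported here by name.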

Additional observations from a re-analysis of the deposited data

Results flagged for a closer look

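Of 55 genes with enough UMIs to be checked in their highest class, 4 had a single library far from the other 3, where chance marks about 1 in 20. Kcnj13 in melanocytes was at 471 CPM in 5 months replicate 1 and between 833 and 865 CPM in the other libraries; the same library was also the lowest for Kcnj13 in pigment epithelium, at 237 CPM. Kcnj14 in rods was at 138 CPM in 5 months replicate 1 and between 120 and 123 CPM elsewhere. Kcna1 in ganglion cells was at 52.0 CPM in 2.5 months replicate 1 and between 61.6 and 62.1 CPM elsewhere. Kcna5 in bipolar cells was at 37.2 CPM in 2.5 months replicate 2 and between 44.5 and 45.5 CPM elsewhere.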

How the results depend on the processing

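Of 647 counts of called genes, 49 moved by more than 1.5 times. The shares of all genes called between classes under these settings are not given here. The moves therefore cannot be told apart from moves of all genes alike. With only the 2.5-month libraries, lower calls were 2 in amacrine and bipolar cells, 19 in cones, 12 in fibroblasts, 7 in horizontal cells, 16 in melanocytes and 18 in Müller glia, and 7 genes were higher in rods than cones. With only the 5-month libraries, lower calls were 2 in amacrine cells, 3 in bipolar cells and 7 in pigment epithelium, and 2 genes were higher in melanocytes than pigment epithelium. With doublets kept, lower calls were 12 in fibroblasts, 7 in horizontal cells and 2 in pigment epithelium, higher calls 11 in pigment epithelium, 33 genes were higher in pigment epithelium than Müller glia and 22 lower in melanocytes than pigment epithelium. With the automatic doublet threshold, pigment epithelium had 8 lower, 2 genes were higher in rods than cones and 21 lower in melanocytes than pigment epithelium. With the highest 6% of scores alone, the first rule run, which was replaced after its age results had been seen, pigment epithelium had 8 lower. DESeq2 gave 10 lower in bipolar cells and 4 lower in pigment epithelium than Müller glia. Removal of rod RNA gave 3 lower in bipolar cells, 8 higher in rods and 22 higher in rods than cones. Leiden resolution 2 gave 2 higher in rods than cones. Leaving out each library gave 2 to 3 lower in amacrine cells, 3 to 4 lower in bipolar cells, 3 to 8 higher in rods than cones (8 without 5 months replicate 1) and 4 to 6 lower in pigment epithelium than Müller glia. The cause of these moves was not tested beyond the removal itself.

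Between the ages, against 3 genes called, DESeq2 and the automatic threshold each called 1, doublets kept 5, the highest 6% 7, no filter 6, and removal of rod RNA and thinning 0. With the donor number as a replicate block 5 genes were called (413 of all genes, against 86); the deviations of libraries with the same number correlated between -0.158 and 0.0595 over the classes, and the numbers do not pair them. The class by age term called 3 genes with no filter, all for amacrine cells, where 97 of all 24054 genes tested were called. Both counts also moved when a library was left out. Such a fit leaves a single library at an age, so its counts are not given. Sign reversed for Kcnip1 in horizontal cells with doublets kept (0.0014 on the log2 scale), and between ages for Kcnj3 in cones without 2.5 months replicate 2 (0.029; range -1.36 to 0.029 over the libraries left out), Kcnb2 in horizontal cells with doublets kept (0.94), Kcnip4 in melanocytes with the automatic threshold (-0.10) and Kcnj13 in melanocytes without 5 months replicate 1 (0.11; range -0.80 to 0.11). DESeq2's scaling moved the median of all genes by 0.16 in melanocytes, -0.15 in rods and 0.12 in pigment epithelium. Depth limits the low genes of horizontal cells, melanocytes and pigment epithelium, with 29 to 134 nuclei a library.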
